A study of Rattus norvegicus with 4 samples.

Results

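The genes described here carry the Wnt signal from outside the ovarian cell to its nucleus: the ligands Wnt4 and Wnt5a, the Frizzled receptors Fzd1, Fzd2 and Fzd6, the co-receptor Lrp6, the feedback gene Axin2, the secreted antagonists Sfrp1 and Sfrp4, and Ctnnb1, which encodes beta-catenin. Every probe set whose single gene symbol in the platform annotation was one of these 10 genes was taken, which gave 10 of 14218 genes so annotated and 16 of the 31099 probe sets on the array. Of these, 13 probe sets of 9 genes were bright enough to be tested among 18625 probe sets, and both Sfrp4 probe sets and 1 of the 4 Ctnnb1 probe sets were not.

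The AMH group consisted of whole rat ovaries (Rattus norvegicus) explanted on postnatal day 4 and kept in culture for 10 days with 50 ng/mL anti-Müllerian hormone, and the control group of ovaries of the same age cultured as long without added hormone. The medium of both groups held insulin, transferrin, albumin and ascorbic acid. Each of the 4 RNA samples came from about 10 pooled ovaries, with 2 independent pools and so 2 Affymetrix arrays per group. The series title names the question, which is how AMH changes ovarian transcripts as it restrains primordial follicles from becoming primary ones. In bulk RNA of a whole organ, fewer cells of a type and less RNA per cell cannot be told apart.

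A Wnt ligand binds a Frizzled receptor together with a co-receptor of the LRP family, which recruits Dishevelled and stops a complex of Axin, APC and kinases from marking beta-catenin for destruction. Beta-catenin then enters the nucleus and works with TCF and LEF factors, and Axin2 is among the genes they switch on, so that it both reports the pathway and restrains it. Other Wnt signals, often those of Wnt5a, pass through Ror, Ryk and planar polarity proteins without beta-catenin. In the mouse, Wnt4 is needed for the female gonad to form and later acts in granulosa cells.

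AMH cultures had more RNA for both ligands and for 2 of 3 receptors, and less for the co-receptor, for Axin2 and for Sfrp1 at its brightest probe set. Of the 13 tested probe sets 4 were higher with AMH (Wnt4, Wnt5a, Fzd1 and Fzd6), 3 were lower (Lrp6, Axin2 and 1 of Sfrp1) and 6 did not pass an adjusted p of 0.05 in limma. Of all tested probe sets 8.67% were called higher and 12.8% lower, 21.5% in either direction, against 53.8% of the tested member probe sets. The members were chosen with earlier results of these data known, so their share is a description and no test of the pathway. Of 116 wider pathway genes without the members 21.6% were called, against 22.9% of all tested genes. Without control replicate 1 the calls among members were 2 higher and 2 lower, without control replicate 2 they were 3 and 2, without AMH replicate 1 they were 3 and 4, and without AMH replicate 2 they were 5 and 2. The AMH arrays did not overlap the control arrays for 12 of the 13, as for 63.5% of all tested probe sets. The median difference of the 13 was -0.28 and that of all tested probe sets 0.02, given as a description. Each difference is a log2 fold change of AMH over control after 16 was added to the intensity, which understates changes of dim probe sets, and stands with its standard error from limma (n = 2 arrays in each group). The small number of arrays sets their precision. An exact permutation of 2 against 2 arrays cannot give a two-sided p below 0.333, so the p-values rest on the spread pooled over probe sets.

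**Figure D1:**
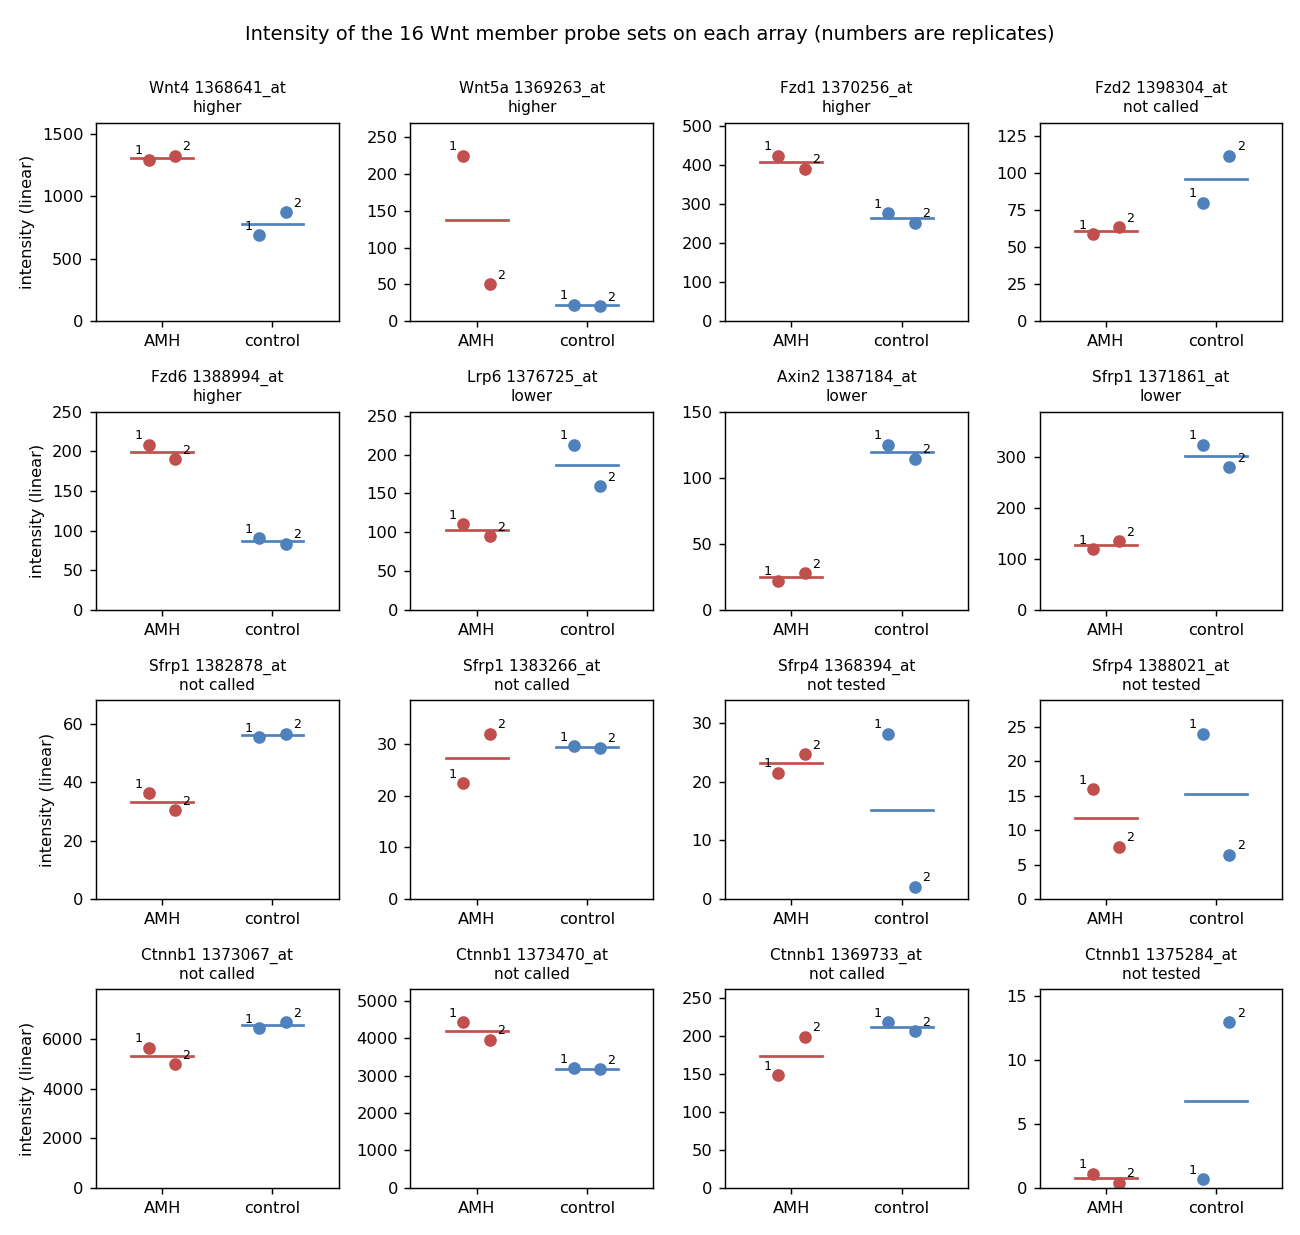
Linear intensity (y axis, each panel with its own scale from 0) of the 16 member probe sets on the 2 AMH arrays (red, left) and the 2 control arrays (blue, right); points are arrays numbered by replicate and bars are group means. Wnt4, Fzd1 and Fzd6 lie above their control arrays on both AMH arrays, Axin2, Lrp6 and the brightest Sfrp1 probe set below them, and the AMH arrays of Wnt5a read 224.9 and 50.5.

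Other measures moved with the groups. GAPDH probe sets at the 3′ end of the transcript outshone those at the 5′ end by a ratio of 6.56 and 6.37 on the AMH arrays and of 1.17 and 1.27 on the control arrays, a measure of how complete the labelled RNA is. A number string in the chip identifiers took 2 values, with none shared between the groups. Whether it marks a batch is not known here. If it does, batch and treatment cannot be told apart in any comparison here. Some marker genes changed too: of 11 tested granulosa markers 2 were higher and 1 lower, of 10 stromal markers 2 were higher and 2 lower, of 8 markers of the surface epithelium 1 was higher and 1 lower, of 7 oocyte markers 4 were lower, of 7 smooth muscle markers 2 were lower (Acta2 and Des), of 7 macrophage and leukocyte markers 1 was higher (Cd68), and of 6 endothelial markers 0 were called. Of all genes tested 22.9% were called, and the shares of the granulosa (27.3%) and surface epithelium (25%) markers lay near it. Of the red blood cell markers, Hbb read 89.4 and 55.3 with AMH and 1362 and 1166.8 in control (-3.88 ± 0.22, adjusted p = 0.000219, limma), and that list summed to 120.7 and 88.6 (AMH) against 1444 and 1257 (control). The summed intensity over all granulosa marker probe sets was 7107 and 4712 on the AMH arrays against 4453 and 3688 on the control arrays, that of the stromal markers 20404 and 28541 (AMH) against 29434 and 28087 (control), and that of the surface epithelium 2433 and 4277 (AMH) against 4704 and 4076 (control). The oocyte markers summed to 7356 and 7740 (AMH) against 10375 and 9743 (control). The 4 oocyte markers called lower were Gdf9 (453.7 and 317.7 with AMH, 1724.9 and 1732.5 in control, -2.14), Bmp15 (-1.93), Sohlh1 (-1.86) and Ooep (-0.61). Zp1, Zp2 and Zp3 were not called. No marker in these lists was at 0 on any array, but the lowest value was 0.4, in the red blood cell list. Without detection calls, a value above 0 does not show that a marker was detected. The defining ovarian genes Foxl2 (600.2 and 617 with AMH, 539.3 and 395.1 in control) and Zp3 (2721.8 and 1977.8 with AMH, 2531.1 and 2133.5 in control) were bright in all 4 samples. The part of RNA integrity or cell composition in the Wnt results was not tested.

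Wnt4 rose with AMH, and its difference ranked above 93.8% of tested probe sets. Its intensity was 1292.5 and 1323.9 on the AMH arrays and 688.7 and 874 on the control arrays. The AMH pools lay close together and above both control pools, and the difference was 0.74 ± 0.16 (1.67-fold, adjusted p = 0.0152, limma). Without control replicate 1 the difference was 0.57 (adjusted p = 0.187), and with the arrays scaled to their hybridization controls it was 0.27 (adjusted p = 0.417), so that the call was lost in both and in 3 of 14 alternatives in all.

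Wnt5a, which signals mostly without beta-catenin, had the larger difference and the wider spread. It read 224.9 and 50.5 on the AMH arrays and 22.5 and 20.6 on the control arrays. Both AMH pools lay above the control pools but AMH replicate 1 far more so, and the control values lay below 27.8, the mean intensity at which probe sets were admitted to the test. Wnt5a rose by 1.75 ± 0.51 (3.37-fold, adjusted p = 0.0419, limma), but control values near the lower limit leave its size and rank poorly fixed. The call was lost in 5 of 13 alternatives, among them the fit with no filter on dim probe sets (adjusted p = 0.0919), and also in the fit on the mean of each gene's tested probe sets (adjusted p = 0.0633). The summed intensity of the theca and steroidogenic markers was likewise highest on AMH replicate 1, with 2616 and 584 on the AMH arrays and 591 and 506 on the control arrays. Hsd3b1 alone gave 1840.3 of that sum on AMH replicate 1, and 0 of the 4 tested genes were called. The granulosa sum was also highest on AMH replicate 1. The stromal, surface epithelium, oocyte, smooth muscle, endothelial and leukocyte sums were all lowest there. The part of any cell type in the Wnt5a value was not tested. Without AMH replicate 1 the difference was 0.83 (adjusted p = 0.0609) and without AMH replicate 2 it was 2.68 (adjusted p = 0.000108). Its size also depended on the constant added to the intensity, with 1.09 (adjusted p = 0.058) when 64 was added and 2.26 (adjusted p = 0.0352) when 1 was added.

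Among the receptors, Fzd6 and Fzd1 rose and Fzd2 did not pass the test. Fzd6, a Frizzled receptor known from planar polarity, read 208.6 and 190 on the AMH arrays and 90.5 and 83.7 on the control arrays. The pools of each group lay close together and far from the other group, and the difference was 1.06 ± 0.19 (2.09-fold, adjusted p = 0.00693, limma), larger than that of 98.5% of tested probe sets. With hybridization control scaling the difference was 0.63 and missed the threshold (adjusted p = 0.0614), as did the unmoderated model, 2 of 14 alternatives in all.

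Fzd1, a receptor that can pass the signal to beta-catenin, read 423.2 and 390.4 with AMH and 276.3 and 251.9 in control. The pools of each group lay near each other and the groups did not overlap. The difference was 0.59 ± 0.16 (1.51-fold, adjusted p = 0.0339, limma). The call was lost in 6 of 14 alternatives. It was no longer called with the replicate block (adjusted p = 0.0514), without control replicate 1 (0.66, adjusted p = 0.163) or control replicate 2 (0.53, adjusted p = 0.242), and hybridization control scaling left 0.13 (adjusted p = 0.701).

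Fzd2 pointed the other way without passing. It read 58.6 and 63.2 on the AMH arrays and 79.8 and 111.6 on the control arrays, and its difference was -0.52 ± 0.23 with a 95% interval of -1.05 to 0.0012 (adjusted p = 0.139, limma). The AMH pools lay below both control pools, which themselves were farther apart than the AMH pools. Hybridization control scaling took it past the threshold at -0.92 (adjusted p = 0.0198), and without control replicate 2 it was -0.32 (adjusted p = 0.628).

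Lrp6, the co-receptor whose phosphorylated tail captures Axin, fell in the same samples. It read 110.6 and 95 on the AMH arrays and 212.8 and 159.7 on the control arrays. Both AMH pools lay below the lower control pool, and the difference was -0.76 ± 0.21 (1.69-fold lower, adjusted p = 0.0355, limma). The call was lost in 6 of 14 alternatives, among them the fit with no filter on dim probe sets (adjusted p = 0.0633), and without control replicate 1 (-0.57, adjusted p = 0.307), without control replicate 2 (-0.95, adjusted p = 0.0609) and without AMH replicate 2 (-0.66, adjusted p = 0.0517).

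**Figure D2:**
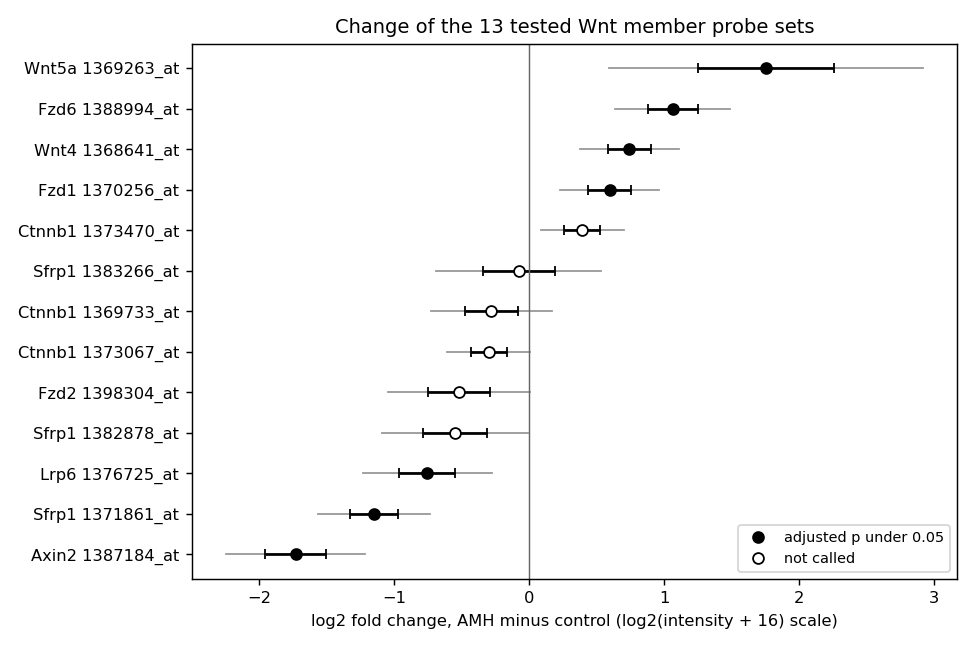
Log2 fold change, AMH minus control (x axis), of the 13 tested member probe sets (y axis); points are limma estimates from 2 arrays per group, thick bars the standard error, thin lines the 95% interval, and filled points passed an adjusted p of 0.05. The probe sets run from Axin2 at -1.73 to Wnt5a at 1.75, and the 3 tested Ctnnb1 probe sets lie on both sides of 0.

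Axin2, the feedback gene of the beta-catenin branch, fell furthest of the 13 tested member probe sets. It read 22.2 and 27.7 on the AMH arrays and 125.2 and 114.4 on the control arrays. The pools within a group lay close together and the groups far apart, and the difference was -1.73 ± 0.22 (3.32-fold lower, adjusted p = 0.00206, limma), below that of all but 1.42% of tested probe sets. The AMH values lay under the intensity at which probe sets were admitted, so the size depends on the constant added and ran from -2.23 with 1 added to -1.05 with 64 added. It was called in 12 of 13 alternatives, the exception being the unmoderated linear model, in which no probe set was called (4284 had an unadjusted p under 0.05).

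Windows of 300 bases around a transcript start in the RefSeq promoter table (GRCr8) were at hand for 5 of the 10 genes, namely Axin2, Wnt4, Wnt5a, Fzd1 and Ctnnb1. The start base of the Fzd1 window is the start of the RefSeq gene, whereas those of the other windows lie inside the gene. They lie downstream of the gene's start by 205 bases for Wnt4, 1365 for Wnt5a, 5406 for Axin2 and 16561 for Ctnnb1. The windows of Wnt5a, Axin2 and Ctnnb1 thus do not show the sequence before the gene's outermost start. That of Wnt4 begins at base 154797200 and the gene at 154797245, so it shows only a short stretch of that sequence. Windows are printed for the 4 of the 5 genes that were called, of which 3 were higher together and Axin2 was lower. The letters searched were TCAAAG, the core of the site that TCF and LEF factors bind, also as CTTTGA on the other strand, and GGCGCC, an element bound by SMAD proteins of BMP signalling, which reads the same on both strands. The 2 motifs can overlap by 1 base, and none of the 5 windows held both. Capitals mark the matches.

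Axin2 start window, GRCr8 chr10:94398535-94398834, plus strand: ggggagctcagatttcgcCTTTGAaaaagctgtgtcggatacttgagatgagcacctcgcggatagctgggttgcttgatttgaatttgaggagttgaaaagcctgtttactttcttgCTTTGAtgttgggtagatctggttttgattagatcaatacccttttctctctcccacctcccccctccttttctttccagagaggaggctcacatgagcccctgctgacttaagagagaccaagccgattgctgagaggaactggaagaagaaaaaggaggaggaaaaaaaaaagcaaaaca
Wnt4 start window, GRCr8 chr5:154797200-154797499, plus strand: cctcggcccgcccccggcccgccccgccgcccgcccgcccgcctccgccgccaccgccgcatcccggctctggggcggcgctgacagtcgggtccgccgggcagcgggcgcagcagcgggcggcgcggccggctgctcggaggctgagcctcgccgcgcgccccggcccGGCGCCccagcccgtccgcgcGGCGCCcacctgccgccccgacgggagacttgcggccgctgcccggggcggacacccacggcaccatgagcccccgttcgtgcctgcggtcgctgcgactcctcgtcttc
Wnt5a start window, GRCr8 chr16:3703415-3703714, plus strand: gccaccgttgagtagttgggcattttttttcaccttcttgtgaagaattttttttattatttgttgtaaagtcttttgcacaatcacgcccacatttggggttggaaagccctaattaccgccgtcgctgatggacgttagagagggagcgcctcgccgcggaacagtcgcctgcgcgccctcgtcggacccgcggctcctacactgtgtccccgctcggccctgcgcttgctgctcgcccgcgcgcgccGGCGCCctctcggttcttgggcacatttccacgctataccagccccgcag
Fzd1 start window, GRCr8 chr4:30264824-30265123, plus strand: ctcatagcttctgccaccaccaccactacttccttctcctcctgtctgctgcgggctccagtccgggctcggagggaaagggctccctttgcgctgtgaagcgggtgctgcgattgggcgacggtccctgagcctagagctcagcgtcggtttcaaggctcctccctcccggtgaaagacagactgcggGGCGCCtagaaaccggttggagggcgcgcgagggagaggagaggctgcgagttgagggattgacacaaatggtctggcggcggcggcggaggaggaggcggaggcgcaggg

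The Axin2 window held 2 matches to the TCF/LEF letters, at positions -232 and -132 from the start base of this window, which is 5406 bases inside the gene, and was the only 1 of the 5 windows with any. Among all 33469 RefSeq windows, 16.1% held at least 1 such match and 1.85% held 2 or more. The windows of Wnt4 (2 matches, at -81 and -60), Fzd1 (1 match, at -61) and Wnt5a (1 match, on the start base) held GGCGCC, as did 11.0% of all windows, and those of Axin2 and Ctnnb1 did not. The Wnt4 window is 83.3% G and C, that of Fzd1 65.3%, that of Wnt5a 58.3%, that of Ctnnb1 48.0% and that of Axin2 45.7%, against a median of 51.7% over all windows. Letter matches of this kind describe the windows and say nothing of whether a factor binds.

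The secreted antagonists bind Wnt ligands outside the cell and keep them from Frizzled. Sfrp1 was measured by 3 probe sets, which gave the same sign at different sizes. The brightest read 119.2 and 135.4 on the AMH arrays and 324.7 and 280.4 on the control arrays, with a difference of -1.15 ± 0.18 (2.22-fold lower, adjusted p = 0.00466, limma). It passed in 13 of 14 alternatives, all but the unmoderated model, with differences between -1.60 and -0.94.

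The second Sfrp1 probe set read 36.3 and 30.4 with AMH and 55.6 and 56.8 in control, and its difference of -0.55 ± 0.24 was not called (adjusted p = 0.132, limma). The third read 22.4 and 32 with AMH and 29.5 and 29.3 in control, near the lower end of the tested range, with -0.08 ± 0.27 and a 95% interval of -0.69 to 0.53. The groups did not overlap for the first 2 of these probe sets and overlapped for the third. The mean over all 3 gave -0.59 ± 0.19 and was not called (adjusted p = 0.0668, limma).

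Sfrp4 was dim on all 4 arrays. Its probe sets read 21.5 and 24.7 with AMH against 28.2 and 2.1 in control, and 15.9 and 7.6 with AMH against 24 and 6.4 in control. In both cases the control pools spanned the AMH pools. When no probe set was left out, the differences were 0.47 ± 0.42 (adjusted p = 0.569) and -0.13 ± 0.34 (adjusted p = 0.878, limma).

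Ctnnb1, which encodes beta-catenin itself, was bright on all arrays at 2 of its 4 probe sets, and these disagreed in sign. The brightest read 5657.3 and 4979.5 on the AMH arrays and 6425.7 and 6666.6 on the control arrays. Its difference was -0.30 ± 0.13 with a 95% interval of -0.61 to 0.01 (adjusted p = 0.146, limma). The next read 4415.4 and 3950.5 with AMH and 3193.2 and 3172.4 in control, a difference of 0.39 ± 0.13 with an interval of 0.08 to 0.70 (adjusted p = 0.0723). Within each of the 2 probe sets the AMH pools did not overlap the control pools, in opposite directions.

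The third Ctnnb1 probe set read 148 and 198.8 with AMH and 217.7 and 206.6 in control and gave -0.28 ± 0.20 (adjusted p = 0.338, limma). The fourth was dim in both groups, at 1.1 and 0.4 with AMH and 0.7 and 12.9 in control. The mean over the 3 tested probe sets was -0.06 ± 0.12, with a 95% interval of -0.36 to 0.23 (adjusted p = 0.748). Quantile normalization turned the brightest to 0.01 (adjusted p = 0.951) and took the second past the threshold at 0.63 (adjusted p = 0.0183), as did median centring (0.46, adjusted p = 0.0426) and the omission of AMH replicate 2 (0.47, 0.00953), while hybridization control scaling turned the second to -0.09 (adjusted p = 0.789) and took the brightest past it at -0.78 (adjusted p = 0.022), as did the omission of AMH replicate 1 (-0.39, 0.0187).

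**Figure D3:**
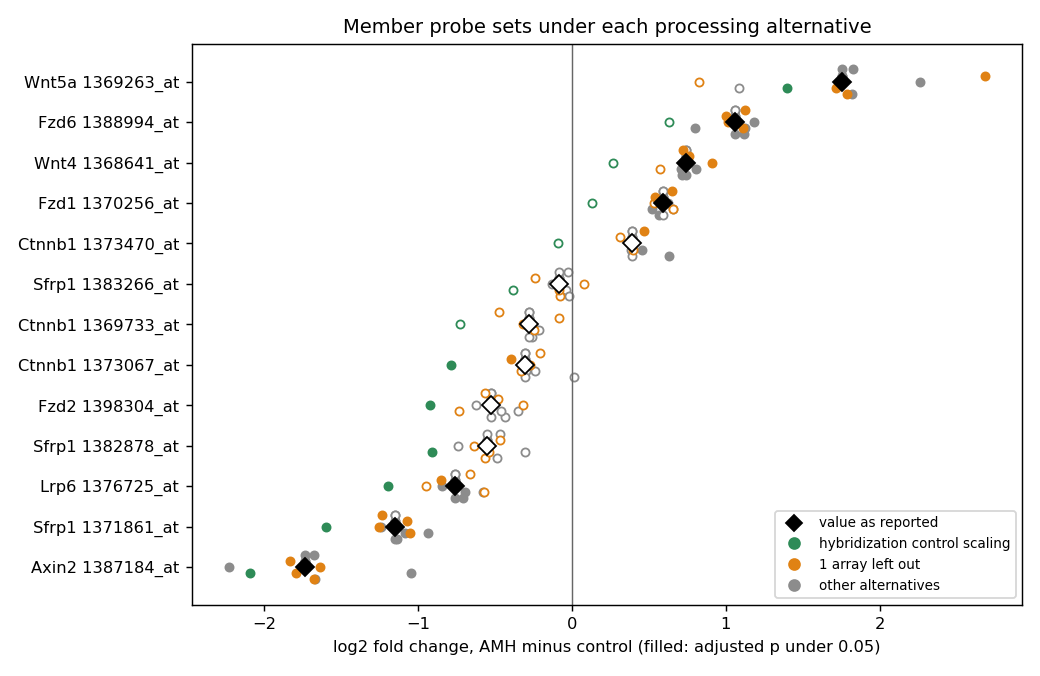
Log2 fold change, AMH minus control (x axis), of the 13 tested member probe sets (y axis) as reported (black diamonds), with 1 array left out (orange), with hybridization control scaling (green) and under the other alternatives (grey); filled symbols passed an adjusted p of 0.05. Wnt5a spreads from 0.83 to 2.68, hybridization control scaling lies left of the reported value for every probe set shown, and 3 probe sets that were not called (2 of Ctnnb1 and 1 of Sfrp1) cross 0.

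The wider pathway was described with each gene at its brightest tested probe set. Beside the members, 116 genes of 7 lists were tested, of which 13 were higher, 12 lower and 91 not called, or 21.6% called, against 22.9% of all 10622 tested genes (11.0% higher and 11.9% lower). Their median difference was 0.08 and that of all genes 0.07. Without control replicate 1 the counts were 3 higher and 6 lower, without control replicate 2 they were 6 and 6. As a whole these genes were thus called at about the rate of the array, in both directions.

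No other ligand passed the test. Of 7 tested genes beside Wnt4 and Wnt5a, Wls, the carrier that escorts Wnt proteins out of the cell, came nearest, with 439.6 and 406.5 on the AMH arrays and 305.3 and 286 on the control arrays (0.49 ± 0.16, adjusted p = 0.0578, limma). Wnt5b gave 0.24 ± 0.32, Wnt9a -0.25 ± 0.20 and Wnt1 -0.56 ± 0.30. Wls passed the threshold in 3 of 14 alternatives, namely median centring (0.56, adjusted p = 0.0373), the omission of AMH replicate 2 (0.55, 0.0351) and the filter at the lowest 60% (0.49, 0.0493). A further 6 ligand genes had probe sets, and none of them was bright enough to be tested.

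Beside the members, 9 genes of receptors and the R-spondin axis were tested and 1 was called. Ryk, a receptor for Wnt5a and other ligands, fell at both of its probe sets, by 0.58 ± 0.17 (162.8 and 154.4 with AMH, 239 and 251.2 in control, adjusted p = 0.0442, limma) and by 1.15 ± 0.20 (66.6 and 57.8 with AMH, 147.6 and 167.4 in control, adjusted p = 0.00686). The call of the brighter probe set was lost in 9 of 14 alternatives, among them quantile normalization (adjusted p = 0.0501) and the omission of control replicate 1 (0.23), control replicate 2 (0.267) or AMH replicate 2 (0.0509). Lgr5, an R-spondin receptor and target of beta-catenin, gave 0.62 ± 0.25 (adjusted p = 0.116), Fzd3 0.46 ± 0.29 and Lgr6 -0.23 ± 0.23.

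Of 8 further secreted or cell surface regulators 2 were higher and 1 lower, and these are not antagonists in the strict sense. Cthrc1, a secreted cofactor that in the mouse favours the polarity branch, read 949.9 and 391.2 with AMH and 90.1 and 166.5 in control (2.17 ± 0.39, adjusted p = 0.00801, limma). The glypicans, surface proteoglycans that present Wnt ligands, split, with Gpc4 higher (0.79 ± 0.19, adjusted p = 0.0228) and Gpc3 lower (-0.62 ± 0.17, adjusted p = 0.0323). Sostdc1 gave 0.37 ± 0.29, Wif1 0.53 ± 0.23, Dkk3 0.36 ± 0.23, Frzb 0.40 ± 0.31 and Sfrp2 0.31 ± 0.20 at its brightest probe set. None of these was called. The call of Gpc4 was lost with hybridization control scaling (0.32, adjusted p = 0.315) and those of both glypicans without either control array. Over all alternatives Gpc4 and Gpc3 lost their calls in 5 of 14 each, Gpc3 also with no filter (adjusted p = 0.0526).

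In the list of Dishevelled and destruction complex genes, 3 of 20 beside Axin2 were higher and 2 lower. The kinase genes Csnk1a1 (0.68 ± 0.17, adjusted p = 0.0231), Csnk2a1 (0.62 ± 0.16, adjusted p = 0.0292) and Csnk1g3 (0.61 ± 0.15, adjusted p = 0.0226, limma) were higher at their brightest probe sets. Other probe sets of the same genes went the other way: a second of Csnk1a1 was lower (-0.92, adjusted p = 0.00793), as were 3 of the other 4 of Csnk2a1 (-1.06, -1.66 and -1.08). Hybridization control scaling ended all 3 of these rises (adjusted p = 0.509, 0.632 and 0.694 in the order named), and each was also lost without either control array, Csnk2a1 also after quantile normalization (adjusted p = 0.0505). Ppp2r1a, the scaffold of phosphatase PP2A, fell at both probe sets, by 1.09 ± 0.18 (268.9 and 201.5 with AMH, 515 and 511 in control, adjusted p = 0.00588) and by 2.08 ± 0.33 (adjusted p = 0.00462). Tnks2, a tankyrase that marks Axin for destruction, fell at 1 of 4 probe sets (-0.68 ± 0.18, adjusted p = 0.0303), a call lost without control replicate 1 (0.167) or control replicate 2 (0.141).

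Beta-catenin's partners gave 3 genes higher and 2 lower of 21 beside Ctnnb1. Tle2, a co-repressor that TCF factors recruit, read 125.4 and 94.2 on the AMH arrays and 42.1 on both control arrays (1.10 ± 0.23, adjusted p = 0.0125, limma). Tle4 rose by 0.55 ± 0.16 (adjusted p = 0.043) at its brightest probe set, while its other tested probe set gave -0.26 ± 0.23 (adjusted p = 0.448, limma). Tle5, a short relative that lacks part of the co-repressor, fell by 1.04 ± 0.22 (177.7 and 123.6 with AMH, 367.7 and 282.1 in control, adjusted p = 0.0142). The junction genes split, with Ctnna1 (alpha-catenin) higher by 0.70 ± 0.15 (adjusted p = 0.0153) and Cdh1 (E-cadherin) lower by 0.78 ± 0.20 (adjusted p = 0.0286). Without control replicate 1, Tle2 (adjusted p = 0.0595), Tle4 (0.292), Tle5 (0.105), Ctnna1 (0.122) and Cdh1 (0.0927) missed the threshold, and without control replicate 2 so did Tle4 (0.195), Ctnna1 (0.0777) and Cdh1 (0.213). Hybridization control scaling ended the calls of Ctnna1 (0.22, adjusted p = 0.476) and Tle4 (0.09, adjusted p = 0.803). Tle4 was lost in 9 of 14 alternatives, among them no filter (adjusted p = 0.0594) and quantile normalization (0.0521), Ctnna1 in 5 of 14, and Cdh1 in 4 of 14, among them no filter (0.0529).

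Of 24 other feedback or target genes of beta-catenin tested, 1 was higher, 3 lower and 20 not called at their brightest probe sets. With Axin2 counted in, 20% of this list was called, against 22.9% of all tested genes. Among the 20, Id2, Fgf9 and Lef1 each had a dimmer probe set called lower, and none had a dimmer probe set called higher. The same count over all genes was not made. That of Id2 read 13 and 36.9 with AMH and 354.7 and 210.1 in control (-2.89 ± 0.34, adjusted p = 0.00142, limma). Its AMH mean of 24.95 lay under the 27.8 at which probe sets were admitted, so its size depends on the constant added. The brightest Id2 probe set gave -0.07 ± 0.18. Birc5, which encodes the mitotic protein survivin, read 62.7 and 54 with AMH and 252.3 and 236.8 in control and fell by 1.81 ± 0.19 (adjusted p = 0.000914, limma). Bmp4 fell by 1.06 ± 0.22 (adjusted p = 0.0128) and Ccnd2, a cyclin of granulosa cell division, by 0.72 ± 0.20 (adjusted p = 0.0357), while Vcan, a matrix proteoglycan, rose by 1.08 ± 0.22 (adjusted p = 0.0125). Without control replicate 2 neither Bmp4 (-0.88, adjusted p = 0.121) nor Ccnd2 (-0.45, adjusted p = 0.319) was called, Ccnd2 also missed the threshold with no filter (adjusted p = 0.064), and Vcan was not called without control replicate 1 (0.84, adjusted p = 0.0864) or with hybridization control scaling (0.62, adjusted p = 0.0708).

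The non-canonical and planar polarity genes held 4 higher and 3 lower among 31, or 22.6% called, against 22.9% of all tested genes. Ppp3ca, a catalytic subunit of the calcium-activated phosphatase calcineurin, read 1031.4 and 850.7 with AMH and 412.2 and 428.3 in control (1.13 ± 0.16, adjusted p = 0.00301, limma), while its other probe set gave -0.29 (adjusted p = 0.214). Rhou, a small GTPase induced by Wnt signals, rose by 0.92 ± 0.15 (adjusted p = 0.00539), a call lost with hybridization control scaling (0.44, adjusted p = 0.151). Camk2g, a calcium-activated kinase, read 50.7 and 24.3 with AMH and 250.8 and 297.2 in control and fell by 2.48 ± 0.27 (adjusted p = 0.000988, limma). Its other probe set gave -0.48 (adjusted p = 0.256). Cdc42, a GTPase of cell polarity, fell by 1.11 ± 0.18 (adjusted p = 0.00493) and was called lower at 2 of its 3 probe sets. The other called genes were Vangl1 (0.96 ± 0.19, adjusted p = 0.0116), Camk2d (0.54 ± 0.16, adjusted p = 0.045) and Mapk9 (-1.17 ± 0.22, adjusted p = 0.00943, limma). The other Camk2d probe set gave -0.24 (adjusted p = 0.512, limma).

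**Figure D4:**
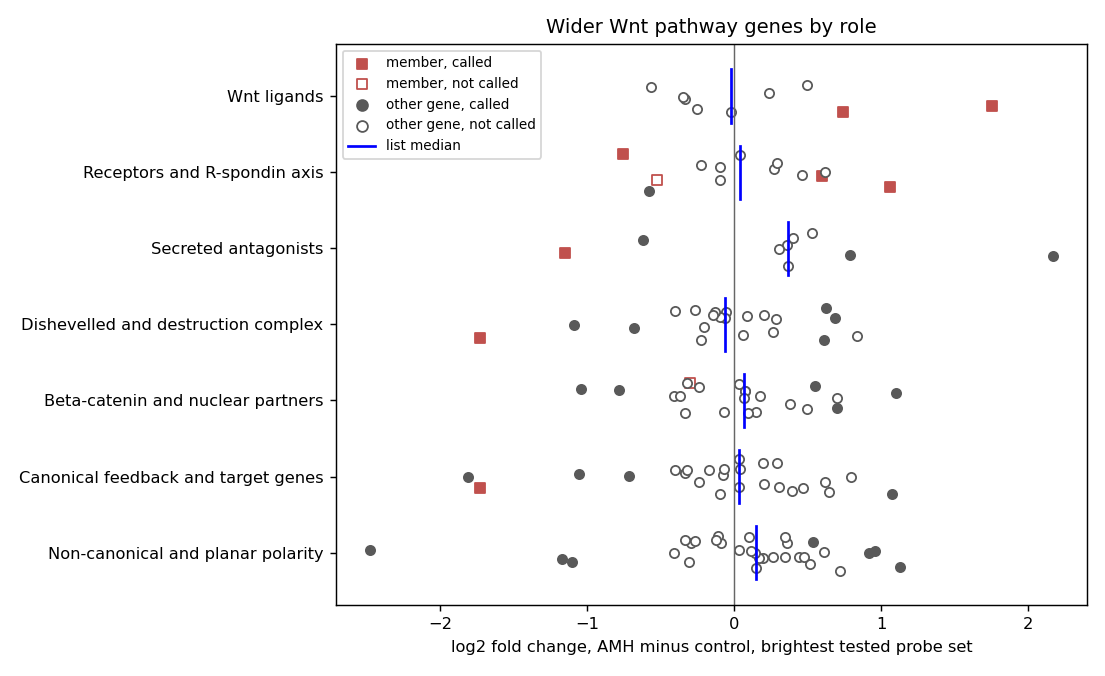
Log2 fold change, AMH minus control (x axis), of each Wnt pathway gene at its brightest tested probe set, by list (y axis, with random vertical spread; a gene in 2 lists is drawn in both); red squares are the member genes, grey circles other genes, filled symbols passed an adjusted p of 0.05 and blue lines are list medians. List medians lie between -0.06 and 0.37, and called genes stand on both sides of 0 in every list but that of the ligands.

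Genes with the nearest pattern over the 4 arrays were found by the root mean square difference of log2 values after centring each probe set on its own mean. Nearest to Wnt4 were Wsb1 (0.023), Mdfi (0.024) and Zmynd11 (0.027) among 5901 genes with a difference of the same sign. Nearest to Wnt5a were Isyna1 (0.12), Npy1r (0.13) and Tnc (0.15), which also read far higher on AMH replicate 1 than on AMH replicate 2 (653 and 197.5 for Tnc, against 113.7 and 119.4 in control). Nearest to Axin2 were Psmb1 (0.044), Cd99 (0.052) and Ap1s1 (0.062), and to the brightest Ctnnb1 probe set Hmmr (0.0093), Ccnb2 (0.0095) and Nit1 (0.012), each among 4719 genes. With 4 arrays in 2 groups such likeness mostly restates the group difference and the spread between pools.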

How the data were processed

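Biotin-labelled total RNA of 2 AMH pools and 2 control pools was hybridised to Affymetrix arrays (1 colour), as the labels' protocols describe. The authors deposited linear probe set intensity values. The summarising software is not stated in any label or header. The mean without the lowest and highest 2% was 125.03 on every array, so the values had been scaled per array. Values were used as log2(intensity + 16). The 57 control probe sets and the lowest 40% of the rest by mean were left out. AMH was compared with control by limma 3.58.1 in R 4.3.3 (intensity trend, two-sided, Benjamini-Hochberg over 18625 probe sets, threshold 0.05; 2 residual and 6.33 prior degrees of freedom), tested on simulated data. Probe sets were named from the platform annotation and genes taken at their brightest tested probe set, except that every member probe set is given. Members and lists were chosen with earlier results of these data known. Named pathway genes were, per list, the 2 highest and 2 lowest by moderated statistic and, in lists with 6 or fewer called genes, all of these. Wif1, Dkk3, Frzb, Sfrp2, Vangl1, Camk2d and Mapk9 were named besides, after their values were seen, and their values under the alternatives are not given. The nearest 3 genes by pattern were named for Wnt4, Wnt5a, Axin2 and Ctnnb1. Foxl2 and Zp3 were named to check the tissue. Alternatives changed the constant, filter, normalization, variance model, replicate block, probe set rule and arrays used. Spread between arrays includes culture, extraction and hybridization, and the hybridization controls had geometric means of 1530 and 1266 on the AMH arrays and 948 and 1045 on the control arrays.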

Additional observations from a re-analysis of the deposited data

How the results depend on the processing

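Counts of calls depended on scale and variance model more than on the constant added. Hybridization control scaling, which shifted the median difference of all probe sets to -0.39 from 0.02, gave 146 higher and 4930 lower probe sets (97.1% lower, against 59.6% as reported and 50.5% with median centring), 1 higher (Wnt5a) and 6 lower member probe sets, and 3 higher and 22 lower wider pathway genes. Without an intensity trend there were 989 higher probe sets, 2 higher member probe sets and 6 higher pathway genes. With no filter 1010 probe sets were higher. The unmoderated linear model called 0 probe sets, 0 member probe sets and 0 pathway genes in either direction (4284 probe sets and 7 of the members had an unadjusted p under 0.05). With the mean over probe sets 7 pathway genes were higher. When 1 array was left out, the higher and lower counts ran from 334 to 2245 and 1047 to 2886 over all probe sets, from 2 to 5 and 2 to 4 over members, and from 3 to 16 and 6 to 15 over pathway genes; in such a fit the lone array is assumed to vary like the other group, and the counts over all probe sets were lowest without control replicate 1. Directions turned only at uncalled probe sets: Ctnnb1 (0.015 with quantile normalization at the brightest, -0.092 with hybridization control scaling at the second), the dimmest tested Sfrp1 (0.080 and -0.24 without AMH replicate 1 and 2), Wnt5b (-0.12 with hybridization control scaling, -0.01 without control replicate 1 and -0.15 without AMH replicate 2, up to 0.62 without AMH replicate 1) and Sostdc1 (-0.023 with hybridization control scaling, and -0.0025 and 0.73 without AMH replicate 1 and 2); the cause was not tested. The groups share replicate numbers. The differences between replicates 1 and 2 in the 2 groups were uncorrelated across probe sets (-0.00082). With 1 such difference per group this cannot show whether same-numbered pools were prepared together. The replicate block gave 1350 higher and 2216 lower probe sets, 3 and 3 among members (Fzd1 missed the threshold, adjusted p = 0.0514) and 12 and 11 among pathway genes. The filter at 60% left Axin2, Wnt5a and 2 Sfrp1 probe sets untested. The block changed no other call among the named probe sets put through the alternatives except those of Ryk (0.068) and Tle4 (0.0699). The table holds no detection calls, so how far dim values stand above background is unknown.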

Other observations

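The values of 3 Wnt genes too dim to be tested, Lrp5, Dvl2 and Rspo1, chosen here after their values were seen, are given as a description; with no filter 1 of their 4 probe sets passed the threshold. The 2 probe sets of Lrp5, the other LRP co-receptor, read 0.9 and 4.2 with AMH against 53.5 and 15.5 in control, and 0.9 and 1.6 with AMH against 37.2 and 27 in control. With no probe set left out of the fit these gave -1.34 ± 0.39 (adjusted p = 0.0783) and -1.47 ± 0.25 (adjusted p = 0.0164, limma), sizes that depend on the constant added. Dvl2, a Dishevelled gene, read 3.8 and 0.4 with AMH and 23.4 and 13.6 in control (-0.92 ± 0.26, adjusted p = 0.0681 with no filter). Rspo1, the R-spondin of the ovary, was dim on all arrays, at 2.5 and 10.6 with AMH and 2.6 and 8.4 in control (adjusted p = 0.932 with no filter).

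Of the wider pathway genes not called at their brightest probe set, 10 had another probe set called, lower in 9 genes (11 probe sets) and higher in 1. The same count was not made over all genes, so it is given as a description. Over all tested probe sets 12.8% were called lower and 8.67% higher. The higher probe set was of Crebbp, a co-activator, with 240.9 and 257.8 with AMH and 105.1 and 111.8 in control (1.09 ± 0.18, adjusted p = 0.00523, limma). Lef1, a nuclear partner and target of beta-catenin, read 47.5 and 38.9 with AMH and 118.6 and 154.6 in control at its dimmer probe set (-1.36 ± 0.23, adjusted p = 0.00571, limma), while the brighter gave -0.34 ± 0.20 (adjusted p = 0.26). Btrc, which encodes the ligase subunit that recognises marked beta-catenin, had 1 of 3 probe sets lower (-1.24 ± 0.22, adjusted p = 0.00755), and Csnk1d had 3 of 5 lower (-1.50, -0.85 and -1.42) with -0.06 ± 0.17 at the brightest. Of 43 wider pathway genes with at least 2 tested probe sets, 25 had probe sets of opposite sign and 2 (Csnk1a1 and Csnk2a1) had a probe set called in each direction. The shares of all genes with such probe sets were not computed. The position of these probe sets along their transcripts was not analysed here, and the 3′/5′ ratios given with the arrays differed between the groups.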
